A study of Homo sapiens with 24 samples.

Results

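Small nucleolar RNAs (snoRNAs) guide the chemical modification of ribosomal and other RNAs, and in human cells most of them are cut out of the introns of longer host transcripts. The 10 host transcripts described here are GAS5, SNHG1, SNHG5, SNHG6, SNHG8, SNHG12, SNHG15, ZFAS1, EPB41L4A-AS1 and TAF1D, chosen by name out of 26485 gene rows, and their levels are given across all 8 groups of an RNA sequencing series in SH-SY5Y, a widely used human neuroblastoma cell line. Cells were given copper chloride for 4 h or, for 24 h, the polyamine copper chelator TEPA, the copper chelator dextran-catechin (DC), TEPA with interferon gamma (IFN), DC with IFN, or IFN alone. They were compared with untreated cells at 4 h and untreated cells at 24 h. Each group had 3 libraries, and the labels give no doses and leave unsaid whether these were separate cultures, so p-values measure the spread among these libraries, which may be technical.

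A host transcript is spliced and exported like a messenger RNA. Many hosts have little or no protein-coding capacity, and ribosomes that engage their short reading frames expose them to nonsense-mediated decay (NMD), so that transcripts such as GAS5 are known to accumulate when translation slows. Many hosts also belong to the 5′ terminal oligopyrimidine (5′TOP) class, whose RNAs start with a C followed by a run of pyrimidines, as do the messages for ribosomal proteins and translation factors.

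The label was partly at odds with the annotation. In GENCODE 29 on GRCh38, 9 of the 10 hosts are annotated as non-coding, and TAF1D, which encodes a subunit of the SL1 complex that recruits RNA polymerase I, is annotated as protein coding. RefSeq places 41 snoRNAs inside the 10 hosts. Most of the snoRNAs in GAS5 (chr1:173863900-173868882, minus strand, 11 snoRNAs) and in SNHG1 (chr11:62851988-62855914, minus strand, 9 snoRNAs) are of the box C/D class, which guides 2′-O-methylation. SNHG5 (chr6:85660950-85678748, minus strand, 2 snoRNAs), SNHG6 (chr8:66921684-66926398, minus strand, 1 snoRNA) and ZFAS1 (chr20:49278178-49295738, plus strand, 3 snoRNAs) hold box C/D snoRNAs as well. SNHG8 (chr4:118278709-118279823, plus strand), SNHG15 (chr7:44983023-44986961, minus strand) and EPB41L4A-AS1 (chr5:112160526-112164276, plus strand) hold 1 snoRNA each, of the box H/ACA class, which guides pseudouridylation. SNHG12 (chr1:28578538-28583132, minus strand, 4 snoRNAs) and TAF1D (chr11:93729948-93784391, minus strand, 8 snoRNAs) hold both classes.

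The libraries measured the hosts, with almost no counts on the rows of the snoRNAs. Counts per gene do not separate spliced from unspliced host RNA. Of the 41 snoRNAs, 39 had a row in the count table, 31 of those rows had 0 counts in all libraries, and the 39 rows summed to 64 counts over the 24 libraries. Per the labels' protocols, the kit was one for stranded mRNA libraries.

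The annotated starts of 8 hosts are shown because the 5′TOP class is defined by its first bases. Each line gives 20 bases before the RefSeq start (GRCh38.p14), the start base and 29 bases after it, read 5′ to 3′ on the gene's own strand. Capitals mark a run of at least 5 pyrimidines that begins at a C within 10 bases of the annotated start.
SNHG5 (chr6:85678704-85678753, minus strand): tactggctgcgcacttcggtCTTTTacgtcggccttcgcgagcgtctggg
ZFAS1 (chr20:49278622-49278671, plus strand): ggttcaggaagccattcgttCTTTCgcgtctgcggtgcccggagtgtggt
SNHG12 (chr1:28581844-28581893, minus strand): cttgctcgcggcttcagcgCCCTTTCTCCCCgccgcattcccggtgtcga
TAF1D (chr11:93741466-93741515, minus strand): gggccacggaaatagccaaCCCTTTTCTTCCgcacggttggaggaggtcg
SNHG8 (chr4:118278742-118278791, plus strand): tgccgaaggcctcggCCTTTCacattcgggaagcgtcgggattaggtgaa
SNHG1 (chr11:62855856-62855905, minus strand): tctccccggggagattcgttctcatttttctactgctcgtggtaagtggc
GAS5 (chr1:173869016-173869065, minus strand): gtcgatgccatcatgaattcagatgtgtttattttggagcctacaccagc
EPB41L4A-AS1 (chr5:112160506-112160555, plus strand): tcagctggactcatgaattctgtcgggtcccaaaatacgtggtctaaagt

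Such a run was found in 5 of these 8 starts (SNHG5, ZFAS1, SNHG12, TAF1D and SNHG8), against 33.5% of 35116 RefSeq promoters. When the annotated start base itself had to be a C that opens at least 5 pyrimidines, whatever the base before it, the shares were 4 of 8 and 4.07%. The marked run begins at the start base in SNHG5 and ZFAS1 and 1 base before it in SNHG12 and TAF1D, whose start base is a C as well. In SNHG8 the run begins 5 bases before the start base and ends on it. The RefSeq start of GAS5, at position 173869045 of chromosome 1, lies outside the GENCODE span of the gene, so its printed window depends on the annotation used. In the 300 bases around the same starts, the C/EBP-ATF response element core TGATGNAA, which ATF4 binds, was found on either strand in 0 of 8 hosts and in 3.62% of all promoters. The metal response element core TGCNCNC, which the metal sensor MTF1 binds, was found in 6 of 8 hosts and in 55.9% of all promoters. The E-box CACGTG, which MYC family factors bind, was found in 0 of 8 hosts and in 7.26% of all promoters. A match describes the letters of the window and nothing else.

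Library totals ran from 24569980 to 35372442 counts, and all 10 hosts were among the 14654 genes with enough counts to be tested. The labels fitted their marker genes: the metallothionein gene MT1X was 5.71 higher on the log2 scale with copper and the interferon-response factor gene IRF1 was 7.32 higher with IFN. Adrenergic neuroblastoma markers summed to 1377 to 1942 CPM (read counts scaled to a common library total) in every library, while 5 leukocyte markers summed to at most 0.862 CPM and 4 epithelial markers to at most 0.898 CPM. The 10 fibroblast and endothelial markers summed to 398 to 656 CPM, the most from PDGFRA (group means of 181 to 274 CPM), with ranges that overlapped between the groups of each comparison with an untreated control and of each chelator with IFN against IFN. Replicates of a group also differed along a trend with the GC content of the genes. The median log2 level of GC-rich genes relative to GC-poor genes, each centred over all libraries, was -0.63, 0.80 and 1.34 in the 3 copper libraries and -1.31, 0.65 and 1.35 in the 3 untreated 4 h libraries. Libraries with the same number at 4 h thus stood at similar points of the trend, and the GC content of the hosts themselves ran from 38.7% (TAF1D) to 54.3% (SNHG15).

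SNHG5 was the most abundant host per length. Levels in CPM per kilobase of the median annotated transcript averaged 210.8 for SNHG5, 150.9 for GAS5, 99.8 for SNHG1, 75.6 for SNHG6, 71.7 for ZFAS1 and 66.8 for SNHG8 over the 24 libraries. Lower levels were found for TAF1D (33.3), SNHG15 (15.7), EPB41L4A-AS1 (9.35) and SNHG12 (3.67). Over single libraries the ranges of neighbours in this order overlapped (171 to 275 for SNHG5 and 92.7 to 226.9 for GAS5, for example), except that SNHG8 (49.1 to 103.0) lay wholly above TAF1D (21.7 to 42.7) and that EPB41L4A-AS1 (6.34 to 14.6) lay wholly above SNHG12 (2.71 to 5.09).

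**Figure D1:**
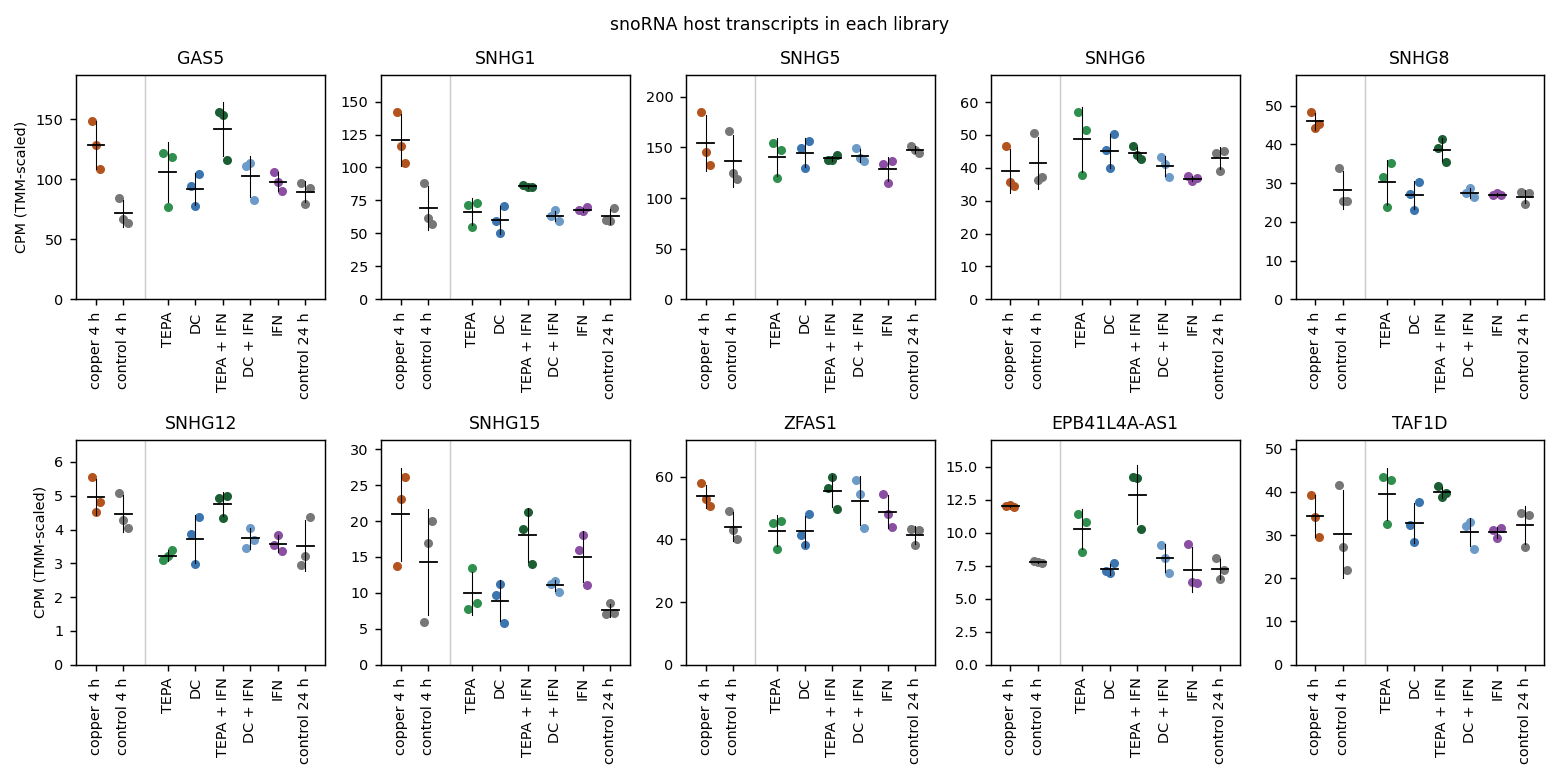
Level of each host transcript in CPM (y axes, from 0, TMM-scaled) in the 8 groups (x axes). Points are libraries, horizontal bars are group means and vertical bars are 1 SD (n = 3). Copper stands wholly above the untreated 4 h cells for GAS5, SNHG1, SNHG8, ZFAS1 and EPB41L4A-AS1, and TEPA with IFN stands wholly above IFN for 8 of the 10 hosts.

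The comparison of copper with untreated cells at 4 h asked which hosts responded to added copper. 4 of the 10 hosts rose with copper (GAS5, SNHG1, SNHG8 and EPB41L4A-AS1, by 1.55-fold to 1.80-fold) and 0 fell, where 2.65% of all tested genes were called higher and 3.2% lower. In 5 of the 10 hosts every copper library was above every untreated 4 h library, where 5.88% of all tested genes showed that pattern. The median log2 fold change was 0.42 over the 10 hosts and -0.02 over all tested genes. In bulk RNA a change of level per cell and a change in the share of cells that express the gene cannot be told apart.

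GAS5, a host of box C/D snoRNAs whose spliced RNA is also known as a decoy for the glucocorticoid receptor, had 148.7, 128.7 and 109.0 CPM in copper libraries 1 to 3, against 84.6, 66.9 and 63.8 CPM in untreated 4 h libraries 1 to 3. The groups did not overlap, and library 1 was the highest in both. The log2 fold change was 0.84 (SE 0.18), with an adjusted p of 0.00616 in edgeR's quasi-likelihood test with Benjamini-Hochberg adjustment over all tested genes.

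SNHG1, another box C/D host, had 142.1, 116.7 and 103.4 CPM in copper libraries, against 88.4, 61.7 and 57.5 CPM in untreated 4 h libraries. The lowest copper library was above the highest untreated one, with library 1 again highest in both groups. Its log2 fold change was 0.80 (SE 0.15; edgeR adjusted p = 0.00278).

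SNHG8, a short host of an H/ACA snoRNA, had 48.4, 44.2 and 45.4 CPM in copper libraries, against 33.9, 25.3 and 25.3 CPM in untreated 4 h libraries. The copper libraries lay close together and above all untreated ones. Copper raised it by 0.71 on the log2 scale (SE 0.13; edgeR adjusted p = 0.00239).

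EPB41L4A-AS1, an H/ACA host that overlaps the EPB41L4A gene on the other strand, was the most even of the 4, with 12.01, 12.13 and 11.93 CPM in copper libraries, against 7.88, 7.75 and 7.70 CPM in untreated 4 h libraries. The gap between the groups was many times the spread within either, on 340 to 362 counts with copper and 192 to 241 counts without. At such counts the closeness of 3 values is no measure of their precision. The log2 fold change was 0.63 (SE 0.16; edgeR adjusted p = 0.0238), and the call was lost on leaving out untreated 4 h library 2 (adjusted p = 0.0605), copper library 2 (adjusted p = 0.0656) or copper library 3 (adjusted p = 0.0574).

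The other 6 hosts did not pass the test. ZFAS1 had 57.9, 52.9 and 50.7 CPM in copper libraries, against 49.2, 43.0 and 40.2 CPM in untreated 4 h libraries, which did not overlap (log2 fold change 0.29, SE 0.12; edgeR adjusted p = 0.246). SNHG15 varied most within groups, with 13.7, 23.1 and 26.1 CPM in copper libraries, against 5.99, 16.96 and 20.04 CPM in untreated 4 h libraries (log2 fold change 0.55, SE 0.35; edgeR adjusted p = 0.519). Its order within each group followed the GC trend given above, lowest in library 1 and highest in library 3, and with that trend removed its log2 fold change was 0.57 (edgeR adjusted p = 0.106). SNHG5 (0.18), TAF1D (0.19), SNHG12 (0.15) and SNHG6 (-0.09) had small log2 fold changes (SE 0.13 to 0.18) and overlapping groups.

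At 4 h libraries with the same number deviated together, with correlations of 0.87, 0.35 and 0.82 for libraries 1 to 3, so same-numbered libraries were also compared. The log2 ratio of copper to untreated was above 0 in 3 of 3 pairs for 8 hosts, in 2 of 3 pairs for TAF1D and in 0 of 3 pairs for SNHG6. The share of all tested genes above 0 in 3 of 3 pairs was not computed, so these counts only describe the hosts. In the fit 45.8% of all tested genes had a log2 fold change above 0 with copper. The SNHG15 ratios were 1.19, 0.44 and 0.38, and those of EPB41L4A-AS1 were 0.61, 0.65 and 0.63. With the replicate number as a block in edgeR, SNHG15 was called too (adjusted p = 0.0144), which gave 5 hosts higher, where 6.25% of all tested genes were called higher under the block. With the GC trend removed as well, its log2 fold change was 0.61 (edgeR adjusted p = 0.000859).

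The direction of the 4 changes held under every alternative computed, while the calls did not. Over 15 alternatives the log2 fold change of GAS5 ran from 0.74 to 0.96 and that of SNHG1 from 0.68 to 0.99. When the 6 libraries at 4 h were fitted alone, 0 of 10 hosts were called by edgeR, with adjusted p-values of 0.0926 for GAS5, 0.192 for SNHG1, 0.115 for SNHG8 and 0.195 for EPB41L4A-AS1, and 0.423% of all genes tested in that fit were called higher.

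**Figure D2:**
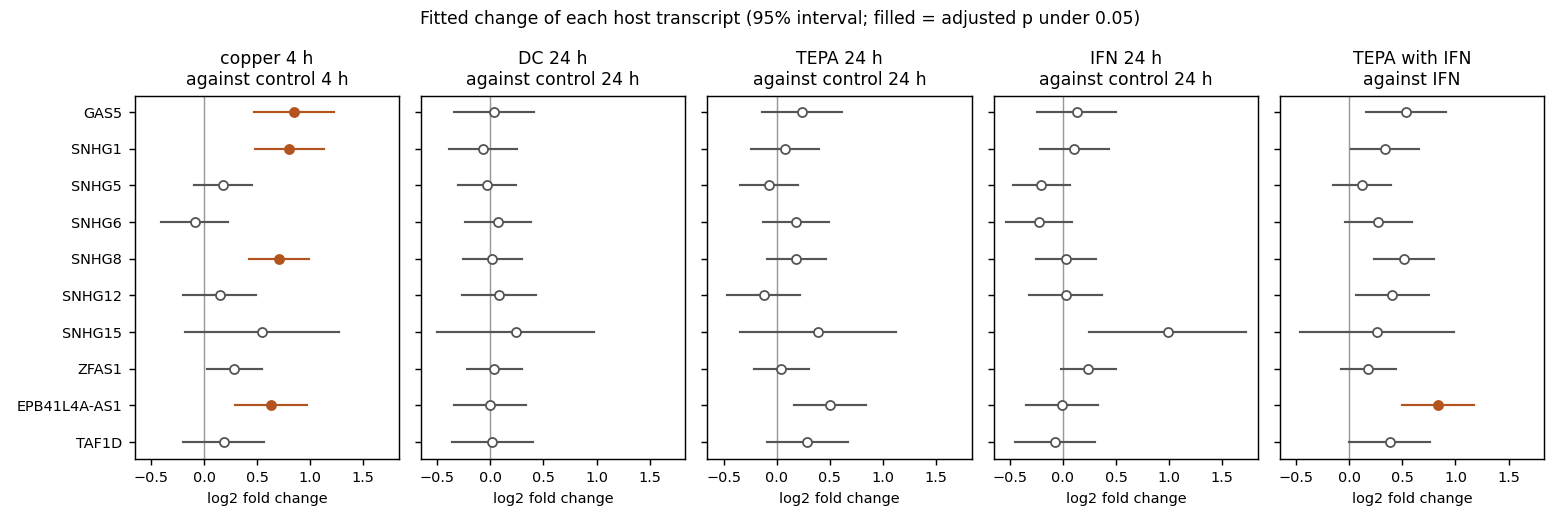
Log2 fold change of each host (x axes) with its 95% interval from the fit, in 5 comparisons; filled orange points passed an adjusted p of 0.05 in edgeR and open points did not. Calls appear for 4 hosts with copper and for EPB41L4A-AS1 in TEPA with IFN against IFN, and all 5 panels share 1 axis.

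Other genes of the same and neighbouring classes were set beside the hosts in the copper comparison. Among 14 tested other non-coding snoRNA hosts 2 rose and 0 fell: SNHG17 (log2 fold change 1.15, SE 0.33; edgeR adjusted p = 0.0474) and C6orf48, also named SNHG32 (0.70, SE 0.13; adjusted p = 0.00232), and their median was 0.10. Of 22 coding genes of the translation apparatus in the 5′TOP class 0 were called in either direction by edgeR, 0 were at an unadjusted p under 0.05 and 0 were called by DESeq2, with a median of -0.01. Of 30 cytosolic ribosomal protein genes, the best known 5′TOP class, 0 were called by edgeR, 0 were at an unadjusted p under 0.05 and 0 were called by DESeq2, with a median of -0.00049 and a range of -0.13 to 0.23.

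Among 21 other coding snoRNA hosts 0 rose and 1 fell, HSPA8, which encodes the constitutive cytosolic HSP70 chaperone (log2 fold change -1.74, SE 0.17; edgeR adjusted p = 8.79e-07). Of 15 snoRNP protein genes, which package snoRNAs, 0 were called by edgeR, with 2 higher and 1 lower at an unadjusted p under 0.05 and 2 called higher by DESeq2. Of 15 RNA polymerase I genes only TBP was called (0.27, edgeR adjusted p = 0.0479). The machinery around the hosts therefore gave few calls, each of them small apart from HSPA8.

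Transcripts of the stress response moved further. Of 16 genes with a transcript known to be subject to NMD 5 rose and 0 fell. They were the stress transcription factor genes ATF3 (3.30), DDIT3 (2.99) and ATF4 (1.41), the growth-arrest gene GADD45A (1.28) and the splicing factor gene SRSF7 (0.35), all as log2 fold changes. Counts per gene do not separate the transcript subject to NMD from other transcripts of the same gene. Of 30 targets of ATF4, which drives the integrated stress response, 28 rose and 0 fell, with a median of 1.94. Of 16 NMD factor genes 0 rose and 1 fell (SMG8, -0.38). Of 21 genes that control translation 1 rose (PPP1R15A, which encodes a regulatory subunit of the eIF2-alpha phosphatase, 1.59) and 1 fell (EEF2K, -0.51). The 8 genes named here passed edgeR's test over all genes, and the median of the hosts lay between those of the ribosomal protein genes and the ATF4 targets. Beside these lists, 5 Schwann cell markers summed to 29.7 to 30.9 CPM in copper libraries and to 45.7 to 49.2 CPM in untreated 4 h libraries. Among them 1 of 3 tested members was called (lower), none of the 5 was at 0 in all 24 libraries, and their part in the results on the hosts was not tested.

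**Figure D3:**
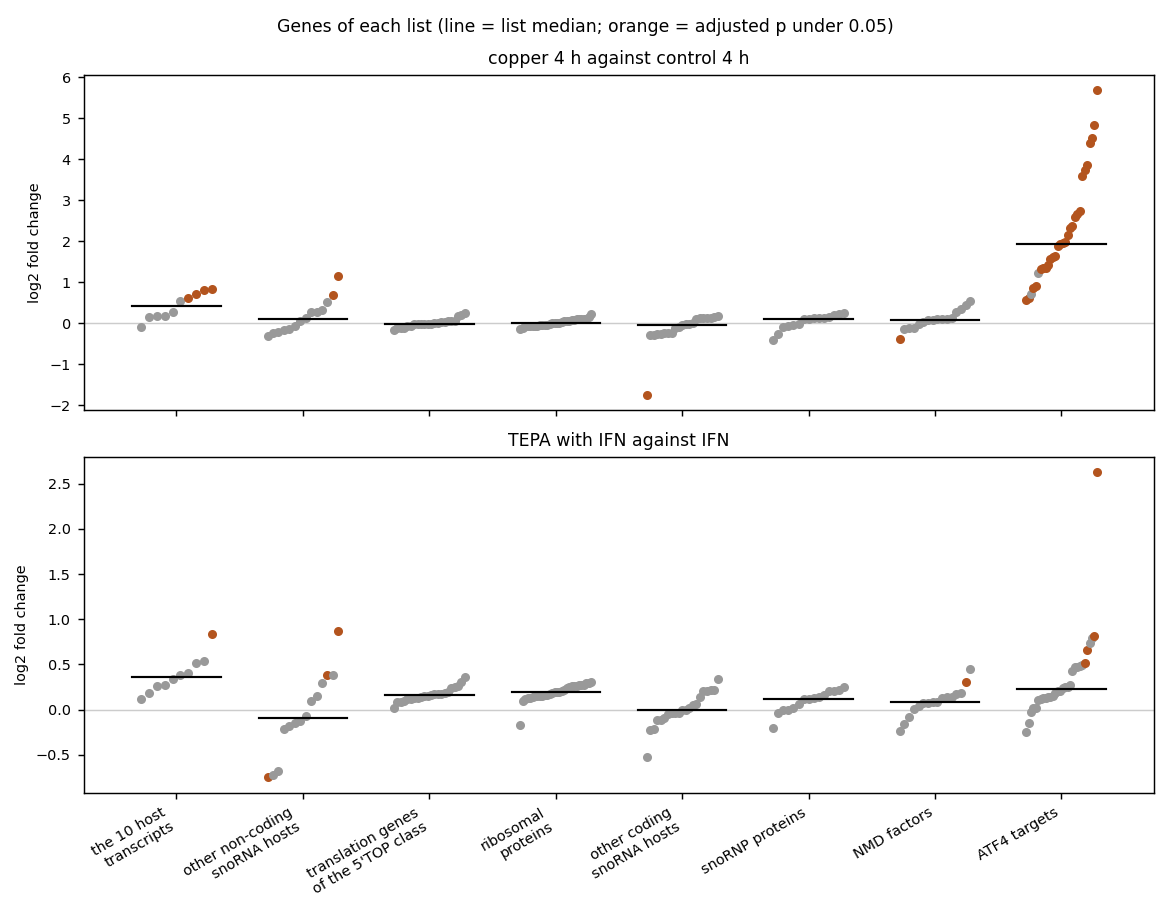
Log2 fold change (y axes) of the tested genes of 8 lists in copper against untreated cells at 4 h (top) and TEPA with IFN against IFN (bottom); points are genes in order of their value, orange points passed an adjusted p of 0.05 in edgeR, and lines are list medians. With copper the median of the 10 hosts is 0.42 and that of the ATF4 targets 1.94, while the ribosomal protein genes lie between -0.13 and 0.23.

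TEPA for 24 h was compared with untreated cells with and without IFN. Without IFN, 0 of 10 hosts were called by edgeR, 1 was at an unadjusted p under 0.05 (9.73% of all tested genes were) and DESeq2 called 0, where 0.519% of all tested genes were called higher and 0.539% lower. EPB41L4A-AS1 was the host with the lowest p, with 11.4, 8.54 and 10.8 CPM in TEPA libraries, against 8.05, 6.51 and 7.21 CPM in untreated 24 h libraries. The groups did not overlap, which held for 1 of 10 hosts and for 6.97% of all tested genes in that direction. Its log2 fold change was 0.50 (SE 0.16; edgeR adjusted p = 0.191). Same-numbered libraries deviated together here as well (correlations of 0.36, 0.57 and 0.23). With the replicate number as a block edgeR's adjusted p for EPB41L4A-AS1 was 0.0417, so that 1 host was called. That block was shared by all groups at 24 h, including IFN, whose library numbers did not pair with those of untreated cells. With the block in the compared libraries alone EPB41L4A-AS1 was not called. GAS5 had 121.9, 77.0 and 118.5 CPM in TEPA libraries 1 to 3, against 96.9, 79.6 and 92.6 CPM in untreated 24 h libraries. TEPA library 2 was below the other TEPA libraries for 8 of the 10 hosts, and it also stood apart in the GC trend (0.62, against -1.01 in library 1 and -0.76 in library 3). With that trend removed edgeR called SNHG6 (log2 fold change 0.23; adjusted p = 0.0332), EPB41L4A-AS1 (0.52; adjusted p = 0.0332) and TAF1D (0.35; adjusted p = 0.00410), where 3.94% of all tested genes were called higher.

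With IFN present, EPB41L4A-AS1 was the 1 host that rose with TEPA, with 14.2, 14.1 and 10.3 CPM in libraries with TEPA and IFN, against 9.17, 6.29 and 6.17 CPM in IFN libraries. The lowest library with TEPA was above the highest without it, though each group had 1 library apart from the other 2. The log2 fold change was 0.84 (SE 0.16; edgeR adjusted p = 0.00905), and the adjusted p was 0.107 when the 6 libraries were fitted alone. The count of 1 of 10 hosts called higher stands beside all tested genes, of which 0.757% were called higher and 1.15% lower.

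SNHG8 had 39.1, 41.5 and 35.5 CPM in libraries with TEPA and IFN, against 26.8, 27.4 and 26.9 CPM in IFN libraries. The IFN libraries lay within 1 CPM of each other and below all libraries with TEPA. The log2 fold change of 0.52 (SE 0.13) missed the threshold narrowly (edgeR adjusted p = 0.0529), and DESeq2 called it (adjusted p = 0.00429).

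GAS5 had 156.1, 153.5 and 116.0 CPM in libraries with TEPA and IFN, against 105.9, 98.1 and 90.03 CPM in IFN libraries. Library 3 was the lowest in both groups, and the groups did not overlap. Its log2 fold change was 0.53 (SE 0.18; edgeR adjusted p = 0.161).

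SNHG1 had 87.1, 85.4 and 85.1 CPM in libraries with TEPA and IFN, against 67.5, 66.6 and 69.8 CPM in IFN libraries, both narrow ranges (log2 fold change 0.34, SE 0.15; edgeR adjusted p = 0.390). SNHG12, the least abundant host, had 4.92, 4.33 and 4.98 CPM, against 3.54, 3.85 and 3.37 CPM in IFN libraries (0.41, SE 0.16; edgeR adjusted p = 0.296). TAF1D had 41.3, 38.7 and 39.8 CPM, against 31.1, 29.3 and 31.7 CPM in IFN libraries (0.38, SE 0.18; edgeR adjusted p = 0.432). None of these 3 passed the test although no library of 1 group reached the range of the other.

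All 10 log2 fold changes of TEPA with IFN against IFN were above 0, from 0.12 (SNHG5) to 0.84 (EPB41L4A-AS1), with a median of 0.36, where the median of all tested genes was -0.02 and 45.7% of them were above 0. In 8 of the 10 hosts, SNHG15 and ZFAS1 being the exceptions, the groups did not overlap, where 10.1% of all tested genes showed that pattern in the same direction. 5 of the 10 hosts were at an unadjusted p under 0.05, where 11.7% of all tested genes were, and DESeq2 called 2, where it called 3.98% of all tested genes. The 2 groups overlapped in the GC trend, which ran from 0.13 to 0.87 with TEPA and IFN and from -0.14 to 0.88 with IFN. When that trend was removed, 6 of the 10 hosts were called higher, where 5.27% of all tested genes were. Without the third library with TEPA and IFN 2 hosts were called higher (EPB41L4A-AS1 and SNHG8), where 0.729% of all tested genes were. The 5 Schwann cell markers summed to 60.9 to 64.3 CPM with TEPA and IFN, against 73.6 to 78.7 CPM with IFN, without overlap, and 1 of their 3 tested members was called (PMP22, lower); their part in the results on the hosts was not tested.

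Among the other non-coding hosts in this comparison, C6orf48 (log2 fold change 0.87, SE 0.13; edgeR adjusted p = 0.00127) and LRRC75A-AS1, also named SNHG29 (0.38, SE 0.07; adjusted p = 0.00510), rose and SNHG21 (-0.75, SE 0.17; adjusted p = 0.0268) fell, out of 14 tested, with a median of -0.10. The same C6orf48 (0.55, adjusted p = 0.0495) and LRRC75A-AS1 (0.29, adjusted p = 0.0440) were the 2 of 14 called with TEPA without IFN. Ribosomal protein genes gave 0 calls of 30 by edgeR with TEPA and IFN, with 10 at an unadjusted p under 0.05 and 1 called by DESeq2, and 29 of 30 were above 0 with a median of 0.19. The 22 coding 5′TOP genes of the translation apparatus were all above 0 (0 called by edgeR, 4 at an unadjusted p under 0.05, 1 called by DESeq2; median 0.16). Of the 30 ATF4 targets 4 rose, among them NUPR1 (2.63) and STC2 (0.81). Of the 16 genes with a transcript subject to NMD 0 were called by edgeR, with 2 at an unadjusted p under 0.05 and 0 called by DESeq2.

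The TEPA effect with IFN was not shown to differ from that without IFN. The interaction gave 0 of 10 hosts called by edgeR and 0 called by DESeq2, where 0% of all tested genes were called. At an unadjusted p under 0.05 in edgeR stood 1 host (SNHG12, 0.53, SE 0.23, unadjusted p = 0.0351), against 1.4% of all tested genes. The interaction was 0.34 for EPB41L4A-AS1 (95% interval -0.14 to 0.81), 0.33 for SNHG8 (-0.06 to 0.73) and 0.30 for GAS5 (-0.23 to 0.83), all on the log2 scale.

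DC, the other chelator, gave 0 of 10 hosts called by edgeR against untreated cells, 0 at an unadjusted p under 0.05 and 0 called by DESeq2, where 0.0136% of all tested genes were called higher and 0% lower. Log2 fold changes ran from -0.07 (SNHG1) to 0.24 (SNHG15), with a median of 0.03. GAS5 had 94.2, 77.7 and 104.1 CPM in DC libraries, against 96.9, 79.6 and 92.6 CPM in untreated 24 h libraries, and its 95% interval for the log2 fold change was -0.34 to 0.41. EPB41L4A-AS1 had 7.09, 6.92 and 7.70 CPM in DC libraries, against 8.05, 6.51 and 7.21 CPM in untreated 24 h libraries, with an interval of -0.34 to 0.34. With IFN present DC also gave 0 of 10 calls by edgeR, 0 at an unadjusted p under 0.05 and 0 by DESeq2, where 0.0136% of all tested genes were called higher and 0.00682% lower. The difference of the DC effect with and without IFN was called for 0 of 10 hosts by edgeR, with 0 at an unadjusted p under 0.05 and 0 called by DESeq2, where 0% of all tested genes were called by edgeR.

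TEPA was set directly against DC, at doses the labels do not give. 0 of 10 hosts were called by edgeR, where 0.587% of all tested genes were called higher and 0.676% lower, with 1 host at an unadjusted p under 0.05 (9.55% of all tested genes were) and 0 called by DESeq2. EPB41L4A-AS1 again had the lowest p, at 11.4, 8.54 and 10.8 CPM in TEPA libraries, against 7.09, 6.92 and 7.70 CPM in DC libraries (log2 fold change 0.50, 95% interval 0.17 to 0.84; edgeR adjusted p = 0.171). With the replicate number as a block it passed the threshold (edgeR adjusted p = 0.0477; correlations of same-numbered libraries 0.12, 0.76 and 0.52). This block too was shared by all groups at 24 h, and with the block in the compared libraries alone EPB41L4A-AS1 was not called.

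IFN alone, against untreated cells at 24 h, called 0 of 10 hosts in edgeR, where 10% of all tested genes were called higher and 8.8% lower. At an unadjusted p under 0.05 stood 1 host, against 39.7% of all tested genes, and DESeq2 called 1 host, against 24.8% of all tested genes. SNHG15, an H/ACA host, stood out, with 15.96, 18.01 and 11.12 CPM in IFN libraries, against 7.0, 8.6 and 7.15 CPM in untreated 24 h libraries. The groups did not overlap and IFN library 3 was the lowest of its group. Its log2 fold change was 0.99 (SE 0.35; edgeR adjusted p = 0.0567; DESeq2 adjusted p = 0.0321), and without IFN library 3 it was 1.15 (edgeR adjusted p = 0.0418). The GC trend moved with the same groups, from -0.14 to 0.88 in IFN libraries and from -0.96 to -0.38 in untreated 24 h libraries, IFN library 3 being the lowest of its group there too. With the trend removed the log2 fold change of SNHG15 was 0.73 (edgeR adjusted p = 0.0277). The Schwann cell markers summed to 73.6 to 78.7 CPM in IFN libraries, against 60.2 to 66.8 CPM in untreated 24 h libraries, with PMP22 called higher, and their part in these results was not tested.

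4 hosts had IFN libraries that did not overlap with the untreated ones: SNHG15 and ZFAS1 stood higher and SNHG5 and SNHG6 lower, where 57.1% of all tested genes did not overlap. ZFAS1 had 54.5, 48.1 and 44.1 CPM in IFN libraries, against 43.2, 38.3 and 42.9 CPM in untreated 24 h libraries (log2 fold change 0.24; edgeR adjusted p = 0.155). SNHG5 had 133.8, 114.9 and 136.5 CPM in IFN libraries, against 151.5, 146.9 and 144.9 CPM in untreated 24 h libraries (-0.20; edgeR adjusted p = 0.231). SNHG6 had 37.4, 35.9 and 36.8 CPM in IFN libraries, against 44.6, 39.05 and 45.3 CPM in untreated 24 h libraries (-0.23; edgeR adjusted p = 0.243). With IFN the hosts thus lay on both sides of 0, with a median of 0.03.

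Other gene lists did give calls with IFN. Of 14 other non-coding hosts 4 rose, SNHG19 (1.36), SNHG17 (1.26), SNHG20 (0.64) and SNHG3 (0.29), and 2 fell, DANCR (-0.56) and LRRC75A-AS1 (-0.22), as log2 fold changes that passed edgeR's test. Of 22 coding 5′TOP genes 0 rose and 6 fell, among them NAP1L1 (-0.52), EEF1B2 (-0.46), TPT1 (-0.41) and EIF4B (-0.39), and of 30 ribosomal protein genes 0 rose and 6 fell, among them RPS3A (-0.60) and RPL5 (-0.53). Of 30 ATF4 targets 13 rose and 0 fell, with a median of 0.83.

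The untreated groups at 24 h and 4 h were compared as a check on the controls. 0 of 10 hosts were called by edgeR, where 5.9% of all tested genes were called higher and 3.79% lower, with 1 host at an unadjusted p under 0.05 (33.1% of all tested genes were) and 1 called lower by DESeq2 (17.1% of all tested genes were called by it in either direction). SNHG15 had 7.0, 8.6 and 7.15 CPM in untreated libraries at 24 h, against 5.99, 16.96 and 20.04 CPM at 4 h, and 4 h library 1 was as low as the 24 h libraries (log2 fold change -0.92, SE 0.35; edgeR adjusted p = 0.0927). Without 4 h library 1 the log2 fold change was -1.33 (edgeR adjusted p = 0.00403). Calls among all tested genes ran from 555 to 7375 on leaving out 1 library at a time, against 1420 as reported. Untreated 4 h libraries 1 to 3 stood at -1.31, 0.65 and 1.35 in the GC trend, and untreated 24 h libraries from -0.96 to -0.38. With that trend removed the 1 host called lower was SNHG1 (-0.28; edgeR adjusted p = 0.00574).

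The copper effect at 4 h was set against the 24 h effects by the difference of the contrasts, which use separate control libraries and differ in time as well as agent. Against the IFN effect 2 of 10 hosts were called higher with copper, SNHG8 (difference 0.68 on the log2 scale, SE 0.19; edgeR adjusted p = 0.0262) and SNHG1 (0.70, SE 0.22; adjusted p = 0.04997), where 3.81% of all tested genes were called higher. The SNHG1 call was lost on leaving out 6 single libraries in turn, IFN 1, IFN 2, untreated 24 h 3, untreated 4 h 2, untreated 4 h 3 or copper 1, with adjusted p-values of 0.0651 to 0.0958. Against the TEPA effect 0 of 10 were called by edgeR, with 3 at an unadjusted p under 0.05 (12.4% of all tested genes were) and 1 called by DESeq2 (5.06% of all tested genes were), where 1.64% of all tested genes were called higher, and SNHG1 came closest (0.73, SE 0.22; edgeR adjusted p = 0.0833). Against the DC effect 0 of 10 were called by edgeR, with 4 at an unadjusted p under 0.05 (8.62% of all tested genes were) and 3 called by DESeq2 (2.7% of all tested genes were), where 0.887% of all tested genes were called higher, and SNHG1 again came closest (0.87, SE 0.22; edgeR adjusted p = 0.0520). With the replicate number as a block, SNHG1 was called higher against the TEPA effect (edgeR adjusted p = 0.00252), where 4.57% of all tested genes were. Under the block GAS5 (edgeR adjusted p = 0.0385), SNHG1 (0.000928) and SNHG8 (0.0195) were called higher against the DC effect, where 2.52% of all tested genes were. At 24 h this block was shared by all groups, including IFN, whose library numbers did not pair with those of untreated cells. Without untreated 4 h library 1 more was called among all genes as well as among the hosts: 5 hosts were higher against the IFN effect (13.9% of all tested genes), 2 against the TEPA effect (2.93%) and 2 against the DC effect (1.28%). EPB41L4A-AS1, the host with the highest fold changes for TEPA, differed between the copper and TEPA effects by 0.13 (95% interval -0.35 to 0.61).

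Several hosts share their locus with a gene on the other strand, and the strand setting of the counting is not given in the sources used here, so reads of overlapping exons may have been given to either gene. Exons of EPB41L4A cover 49.6% of the EPB41L4A-AS1 exons, those of MCMDC2 cover 29.3% of the SNHG6 exons, and those of ZNFX1 cover 11.1% of the ZFAS1 exons. For GAS5, SNHG12 and TAF1D no single neighbour covers more than 3.0%.

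Hosts and neighbours had different values. With copper EPB41L4A, which encodes a membrane-skeleton protein of the band 4.1 family, had 25.04, 21.6 and 21.2 CPM, against 26.1, 20.9 and 20.1 CPM in untreated 4 h libraries (log2 fold change 0.02; edgeR adjusted p = 0.997), while EPB41L4A-AS1 rose by 0.63. With IFN ZNFX1, which encodes an antiviral helicase-like sensor, had 217.2, 227.0 and 158.2 CPM, against 28.9, 32.1 and 28.7 CPM in untreated 24 h libraries (2.75; edgeR adjusted p = 1.04e-11), while ZFAS1 was 0.24 higher without passing the test. SLC3A2, which encodes the heavy chain of amino acid transporters, starts on the other strand within 1 kb of the SNHG1 start without overlap and is itself on the ATF4 target list. It had 111.1, 134.7 and 150.5 CPM in copper libraries, against 22.5, 34.0 and 42.8 CPM in untreated 4 h libraries (1.99, SE 0.22; edgeR adjusted p = 7.95e-06). SLC3A2 was also called with IFN (0.80; edgeR adjusted p = 0.0154), where SNHG1 was not (0.11; edgeR adjusted p = 0.590). With TEPA and IFN SLC3A2 had 56.3, 57.2 and 47.4 CPM, against 40.1, 44.3 and 31.9 CPM in IFN libraries. These groups did not overlap, as was found for SNHG1. Any link between the 2 genes was not tested.

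**Figure D4:**
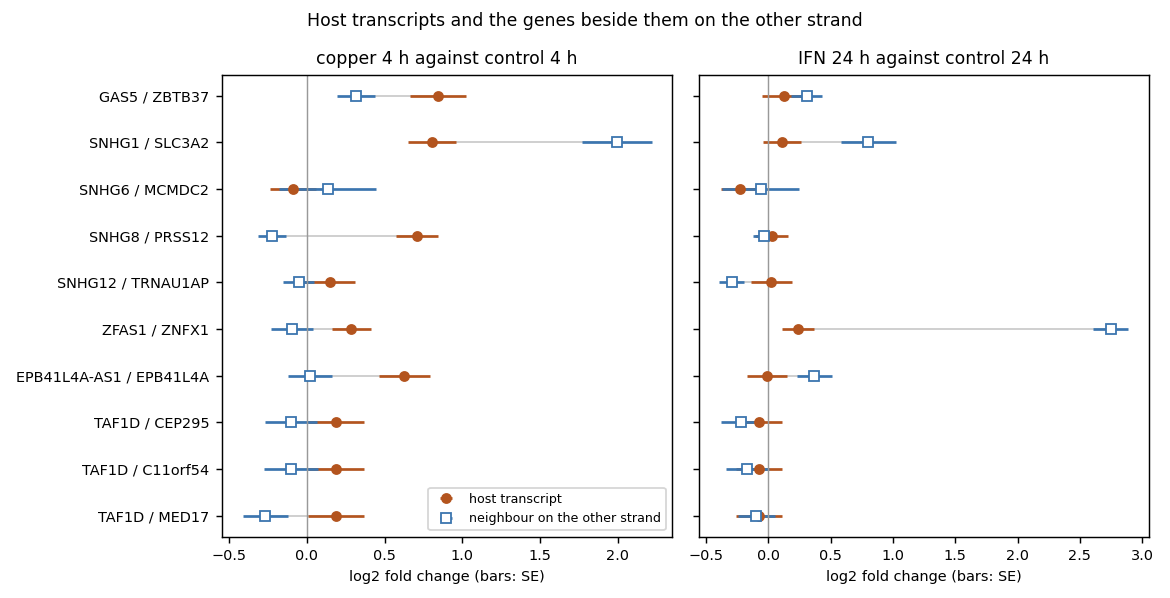
Log2 fold change (x axes, bars are SE) of each host (filled circles) and of a gene on the other strand that overlaps it or lies within 1 kb (open squares), with copper at 4 h (left) and IFN at 24 h (right). SLC3A2 with copper (1.99) and ZNFX1 with IFN (2.75) lie far from their hosts SNHG1 (0.80) and ZFAS1 (0.24).

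Across the 8 groups the hosts summed to 615 ± 77.1 CPM with copper, 497 ± 78.0 with TEPA, 464 ± 53.8 with DC, 581 ± 35.2 with TEPA and IFN, 482 ± 41.5 with DC and IFN, 464 ± 19.6 with IFN, 448 ± 74.6 in untreated cells at 4 h and 462 ± 25.2 in untreated cells at 24 h (SD, n = 3 each). The groups with copper and with TEPA and IFN were thus the highest, and the sum is carried mostly by SNHG5, GAS5 and SNHG1. The mean profile of the hosts, each standardised over the 8 group means, was 1.13 with copper and 1.06 with TEPA and IFN, and it lay between -0.57 and 0.02 in the other 6 groups. Single hosts correlated with this mean profile, which includes them, at a Pearson r of 0.97 for SNHG8, 0.96 for EPB41L4A-AS1, 0.88 for SNHG1 and 0.87 for GAS5, down to 0.44 for SNHG5 and 0.06 for SNHG6 over the 8 group means. The groups at 4 h and at 24 h have separate untreated controls, and whether all 8 share a library preparation is not known here.

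Among other genes averaging at least 10 CPM, the 10 whose 8 group means were most like the mean profile of the hosts were MRPL22 (r = 0.96), ZNF740 (0.95), HKR1 (0.95), C6orf48 (0.94), CHST3 (0.93), COX19 (0.93), ADAT1 (0.92), INPP5B (0.91), HAX1 (0.91) and RBM22 (0.91). C6orf48 is itself a snoRNA host, and it had 98.3 ± 10.04 CPM with copper, against 60.7 ± 2.3 CPM in untreated 4 h cells, and 109.7 ± 16.3 CPM with TEPA and IFN, against 59.9 ± 5.2 CPM with IFN (SD, n = 3 each).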

How the data were processed

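The authors deposited whole-number read counts per gene symbol without normalization, as 1 table of all libraries and 1 list per library, and for 24 of 24 libraries the list equalled its column of the table. STAR 2.5a, RSEM 1.2.31 and the build hg38 are named in the labels, per the submitters' processing notes. The annotation release, the strand setting and any filter are not given in the sources used here. Totals cover counting error only as a measure of precision.

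In R 4.3.3, low genes were dropped by edgeR 4.0.16 (filterByExpr, minimum count 10) and TMM factors scaled the library sizes. A quasi-likelihood model with 1 mean per group was fitted to all 24 libraries (16 residual degrees of freedom, common biological coefficient of variation 0.207). Calls were made at p under 0.05 after Benjamini-Hochberg adjustment over all 14654 tested genes. The script was tested on simulated data. 13 contrasts were tested: copper, DC, TEPA and IFN against their untreated controls, each chelator with IFN against IFN alone, the chelators against each other, both chelator by IFN interactions, the untreated groups, and the copper effect minus the TEPA, DC and IFN effects. Symbols matched GENCODE 29 for 90.2% of genes. Of the tested genes 93.7% had a GC content there.

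The hosts, the gene lists and the rule for named genes (all hosts, up to 4 called genes of largest change per list, all genes within 1 kb of a host, and the 10 most alike profiles) were chosen with earlier results of these data known. Same-numbered libraries were taken as paired where each of the 3 correlations of their deviations from the group means was over 0.1, which held for copper, DC and TEPA against their controls and for TEPA against DC. In fits of all libraries the replicate block was shared by all groups of a time, whether or not their numbers paired. Alternatives were other scalings, DESeq2 1.42.0, no count filter, fits of the compared libraries alone, the replicate block, removal of the GC trend and leaving out each library. Promoter sequences are from RefSeq (GRCh38.p14), and 8 of the 10 hosts were searched. SNHG15 had no entry among them, and SNHG6, on chromosome 8, was left out. The promoters of all genes were not filtered by chromosome. Some items under the rule for named genes and 1 searched motif are not reported here.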

Additional observations from a re-analysis of the deposited data

How the results depend on the processing

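SNHG12, the least abundant host, had 83 to 160 counts per library, which bounds the precision of its values. Over 130 fitted values of the hosts and 2190 values under alternatives, 138 changed sign without being called under either, 126 were called only under the alternative and 16 only as reported. 1 called value reversed: TAF1D with IFN, at -0.08 as reported, was 0.19 with the replicate block and the GC trend removed (edgeR adjusted p = 0.0396). The causes were not tested.

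The counts of hosts called that moved are these, and calls among all genes tested moved as well. The share of all genes called in each single setting is not given here or in the next paragraph. These counts therefore describe how the calls moved and are not a result about the hosts. Apart from fits that left out 1 library, all-gene calls in either direction ran from 61 to 3800 for copper (857 as reported). They ran from 0 to 1986 for TEPA (155), 2404 to 8210 for IFN (2761) and 121 to 2777 for TEPA with IFN (279). For TEPA against DC they ran from 2 to 2041 (185), and for the untreated groups from 0 to 3679 (1420). For copper, reported as 4, the count was 0 in the compared libraries alone, 5 with library totals, 5 with the replicate block, 6 with the GC trend removed, 7 with the replicate block and the GC trend removed, and 7 with the block in the compared libraries alone, an alternative added after seeing the data. For TEPA, reported as 0, it was 1 with the replicate block, 3 with the GC trend removed and 3 with both. For IFN, reported as 0, the count higher was 1 in DESeq2, 1 in the compared libraries alone, 1 with the replicate block, 3 with the GC trend removed, 4 with both and 2 with the block in the compared libraries alone, and the count lower was 1 in the compared libraries alone and 1 with the replicate block. For TEPA with IFN, reported as 1, it was 2 with DESeq2's size factors in edgeR, 3 with library totals, 2 in DESeq2, 4 with the replicate block, 6 with the GC trend removed, 6 with both and 8 with the block in the compared libraries alone. The block for IFN and for TEPA with IFN rests on numbers that did not pair the libraries (correlations -0.05, 0.27 and 0.09, and 0.07, 0.54 and 0.56). For TEPA against DC, reported as 0, it was 1 with the block, 2 with the GC trend removed and 2 with both. For the untreated groups the count lower, reported as 0, was 1 in DESeq2 and 1 with the GC trend removed.

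For copper minus TEPA, reported as 0, the count was 2 with library totals, 1 in DESeq2, 1 with the block, 4 with the GC trend removed, and 4 higher and 1 lower with both. For copper minus DC, reported as 0, it was 1 with DESeq2's size factors in edgeR, 3 with library totals, 3 in DESeq2, 3 with the block, 4 with the GC trend removed and 5 with both. For copper minus IFN, reported as 2, it was 5 with library totals, 4 in DESeq2, 1 with no count filter, 5 with the block, 5 with the GC trend removed and 5 with both. Over these alternatives all-gene calls in either direction ran from 127 to 2946 for copper minus TEPA (456 as reported). They ran from 92 to 1895 for copper minus DC (208) and from 792 to 4817 for copper minus IFN (1375). Leaving out 1 library at a time gave 3 to 4 hosts for copper, 0 to 1 for IFN, 1 to 2 for TEPA with IFN, 0 to 1 for the untreated groups, 0 to 2 for copper minus TEPA, 0 to 2 for copper minus DC and 1 to 5 for copper minus IFN. All-gene calls in those fits ran, in the same order, from 660 to 1129, 1707 to 3636, 124 to 251 and 555 to 7375. For the 3 differences they ran from 351 to 822, 160 to 316 and 1089 to 3855. The replicate block changed no other count of hosts by more than 1.5 times in the paired comparisons.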

Other observations

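CASC3, which encodes a core protein of the exon junction complex that marks transcripts for NMD, was the 1 of 16 NMD factor genes called with TEPA, both without IFN (log2 fold change 0.26; edgeR adjusted p = 0.00917) and with IFN (0.30; edgeR adjusted p = 0.00246). Of 30 ATF4 targets 1 was called with TEPA without IFN, SLC7A11, which encodes the cystine transporter subunit and fell by 1.19 on the log2 scale (edgeR adjusted p = 0.00917).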
